A study of Mus musculus with 36 samples.

Results

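The genes described here are 40 mouse genes for heat shock proteins and other protein folding factors of the cytosol and nucleus (29 genes), the mitochondria (3) and the endoplasmic reticulum (8, counting Ddit3 and Xbp1, nuclear transcription factors of the unfolded protein response), out of 55421 genes in the deposited count table. They were chosen by gene symbol and matched to Ensembl identifiers. All 40 passed the filter on low counts, which kept 19478 genes for testing.

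Chaperones are proteins that bind unfolded or misfolded chains and help them fold or hand them on for degradation. Hsp70 proteins bind exposed stretches in cycles of ATP hydrolysis that J-domain proteins start and nucleotide exchange factors end, Hsp90 proteins finish the folding of clients such as kinases and steroid receptors, and small heat shock proteins hold unfolded chains without using ATP. The heat shock factors drive the cytosolic genes when unfolded protein accumulates, and the unfolded protein response, through Xbp1, Atf6 and the Perk, Atf4 and Chop (Ddit3) branch, does so for the endoplasmic reticulum.

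The samples were slices of the right hippocampus of 16-month-old mice, either C57BL/6 wild type (WT) or T41B. T41B mice are the Thy1-hAPPLond/Swe Line 41 amyloid model, in which a human APP gene with the London and Swedish mutations is driven by the Thy1 promoter, mainly in neurons. Mice of both genotypes had been given vehicle (VEH) or the compound BD10-2, which partially activates TrkB and TrkC (receptors for neurotrophins), by oral gavage over 3 months that began at 13 months of age. Slices either received theta-burst stimulation, an electrical pattern that induces synaptic potentiation, in 3 rounds of 10 bursts with 4 stimuli each, or went through a sham procedure, and were then frozen at once. The WT vehicle and T41B vehicle groups held 4 sham and 4 stimulated slices each, from the same 4 mice (Mouse1509, Mouse1513, Mouse1522 and Mouse1524 for WT, and Mouse1510, Mouse1551, Mouse1553 and Mouse1579 for T41B). WT BD10-2 slices came from 3 mice for sham (Mouse1565, Mouse1571, Mouse1590) and 3 for stimulation (Mouse1565, Mouse1571, Mouse1586). T41B BD10-2 slices came from 5 mice for sham (Mouse1557, Mouse1563, Mouse1564, Mouse1570, Mouse1592) and 5 for stimulation (Mouse1563, Mouse1564, Mouse1570, Mouse1572, Mouse1592). Values of a group are given below in this order of mice. Both slices of a mouse were present for 14 of 18 mice.

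The 36 libraries held 11597555 to 28125842 estimated reads each, and 4 pairs of libraries with the same mouse and stimulation were added, which left 32 samples. The labels do not say whether such a pair came from 1 slice or from separate slices of the mouse, and the sum is treated as 1 slice here. Thy1, whose promoter drives the transgene, stood at 918 to 2504 CPM (counts scaled to a common library size) in the T41B libraries and 253 to 403 in the WT libraries, so every library matched its genotype label by this measure. Mouse App stood at 953 to 1193 CPM in T41B and 1022 to 1425 in WT libraries. Neuron markers (6 genes) summed to 1854 to 3875 CPM and the 4 hippocampal neuron markers to 750 to 1424 CPM over the 32 samples. Markers of 9 choroid plexus genes summed to more than 100 CPM in 6 samples: the stimulated slices of Mouse1509 (1240) and Mouse1513 (1020), and both slices of Mouse1551 (136 sham, 300 stimulated) and Mouse1553 (536 sham, 117 stimulated). The other 26 samples stood between 15.6 and 30.9 CPM. The 6 samples above 100 CPM are called the choroid-rich samples below. Where a call in a single comparison was lost without them, its log2 fold change in the remaining samples is given.

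Levels between genes are compared as CPM per kilobase of exon. In WT vehicle sham slices the highest mean levels were those of cytosolic chaperones. The constitutive Hsp90ab1 stood at 300 CPM per kilobase and Hspa8 at 247, and the inducible Hsp90aa1 at 156. The main endoplasmic reticulum chaperones followed with Hsp90b1 at 48.8 and Hspa5 at 44.4 CPM per kilobase. The mitochondrial Hspd1 and Hspa9 stood at 31.3 and 30.2. The heat-inducible Hsp70 genes Hspa1a and Hspa1b were low, at 6.9 CPM per kilobase each, and the testis-type Hspa1l was the lowest of the 40 at 0.149. Across the 32 samples the ratio of the highest to the lowest CPM of a gene was largest for Hspa1l (5.82), Bag3 (5.64), Hspb1 (5.26), Hspb8 (5.07), Ddit3 (4.69) and Hspa1a (4.18), and smallest for Hspd1 (1.26) and Dnajb6 (1.27).

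Stimulated slices were compared with sham slices in each combination of genotype and treatment, with edgeR's quasi-likelihood test on counts of all 8 groups. A gene was called when its p-value, adjusted by the Benjamini-Hochberg method over the 19478 genes, was under 0.05, and calls are those of this fit on all samples unless another fit is named. Hspa1a, Hspa1b, Bag3, Ddit3 and the mitochondrial Hspa9 were called higher in all 4 combinations, Hspb8, Dnajb9 and Xbp1 in 3, and Chordc1 was called lower in 3. No member was called lower in all 4. Of all genes tested, 869 (4.46%) were called higher in all 4 combinations and 198 (1.02%) lower in all 4.

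In WT vehicle slices, 12 of 40 members were called higher (30%, against 8.21% of all genes tested) and 0 lower (4.1% of all genes). T41B vehicle slices had 8 members called higher (20%, against 11.7%) and 2 lower (5%, against 9.83%), where 21.5% of all genes were called in either direction. WT BD10-2 slices had 5 higher (12.5%, against 6.29%) and 2 lower (5%, against 2.58%), with 8.87% of all genes called in either direction. T41B BD10-2 slices had 13 higher (32.5%, against 13.3%) and 2 lower (5%, against 9.52%). For the mean of the 4 combinations, 15 members were called higher (37.5%, against 22.2%) and 4 lower (10%, against 24.6%), with a median log2 fold change of 0.07 over the 40 and -0.03 over all genes. The sham and stimulated ranges did not overlap for 11, 6, 14 and 8 members in the order of combinations above, or 27.5%, 15%, 35% and 20% of the 40. The same shares over all genes tested were 16.1%, 20.4%, 32.9% and 15.3%. Without the 6 samples rich in choroid plexus markers, 15 members were called higher in WT vehicle slices (2 stimulated slices left) and 3 in T41B vehicle slices (2 mice left), and 0 lower in either. In that fit Bag3, Hspb8 and Ddit3 were the 3 called members in T41B vehicle slices. The mean of the 4 combinations then had 15 called higher and 5 lower. The share of all genes called in that fit is not given here, so these counts have no background beside them.

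In the mean comparison, where 22.2% of all genes were called higher and 24.6% lower with a median of -0.03, the members were also counted by compartment. Of the 8 endoplasmic reticulum chaperones and unfolded protein response factors, 5 were called higher and 0 lower, with a median log2 fold change of 0.20. Of the 29 members of the cytosol and nucleus, 9 were called higher and 4 lower (median 0.01), and of the 3 mitochondrial members 1 was called higher (median 0.03). The difference between compartments was not tested.

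**Figure D1:**
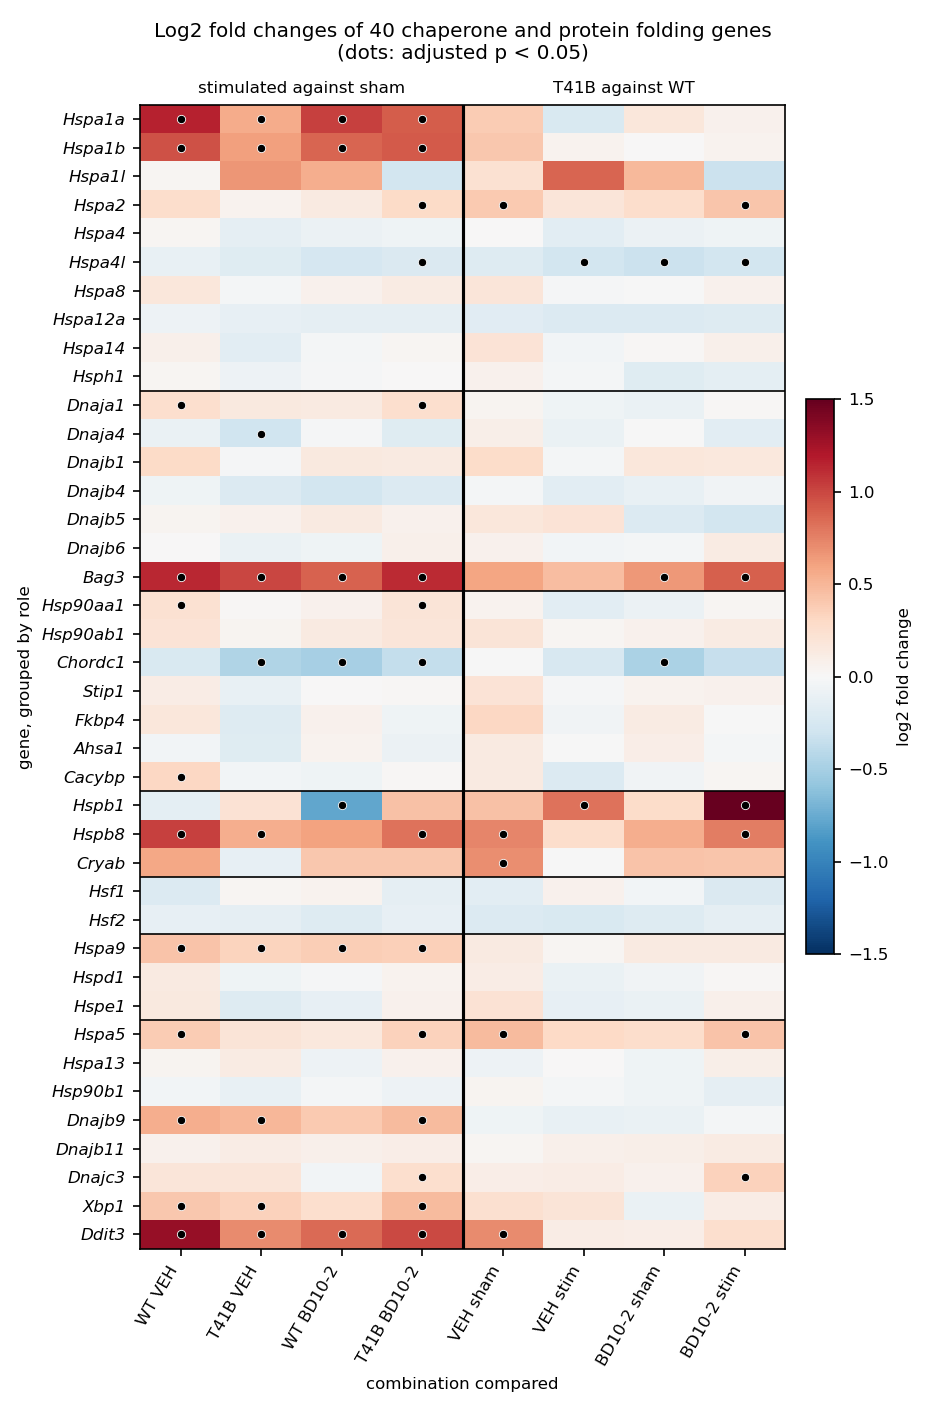
Colour gives the log2 fold change of each of the 40 genes (rows, grouped by role, with lines between the groups) in 8 comparisons (columns): stimulated against sham slices in the 4 combinations of genotype and treatment on the left, and T41B against WT on the right. Dots mark edgeR adjusted p under 0.05, and 5 genes (Hspa1a, Hspa1b, Bag3, Hspa9, Ddit3) carry a dot in all 4 columns on the left.

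Cell type markers also differed between sham and stimulated slices. Of the 8 microglia markers, 6, 7, 7 and 6 were called lower after stimulation in WT vehicle, T41B vehicle, WT BD10-2 and T41B BD10-2 slices. Their summed level fell from 251 to 326 CPM in WT vehicle sham slices to 110 to 184 in stimulated ones, and from 540 to 1013 to 293 to 421 CPM in T41B vehicle slices. Of the 6 astrocyte markers, 3, 4, 0 and 3 were called higher, with sums of 6320 to 7086 CPM in sham and 7074 to 8741 in stimulated WT vehicle slices. Of the 6 neuron markers, 5 were called lower in the mean comparison. All 9 choroid plexus markers were called higher in WT vehicle slices and 0 in the other 3 combinations. Fewer cells of a type and less RNA per cell cannot be told apart in whole slices, and the part of these shifts in the results on chaperone genes was not tested.

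The inducible Hsp70 genes Hspa1a (ENSMUSG00000091971, chr17:34969190-34972156, minus strand, GRCm38) and Hspa1b (ENSMUSG00000090877, chr17:34956436-34959238, minus strand) are near copies that heat shock factor 1 induces under stress. Of the 75-base windows of Hspa1a transcripts, 52.7% occur unchanged in Hspa1b, so the division of reads between them is uncertain. Their promoters, the 250 bases before the start site in RefSeq's GRCm38.p6 annotation, are shown because both genes moved together; Hspa1a spans chr17:34972157-34972406 and Hspa1b chr17:34959239-34959488, minus strand, and the capitals mark a match to the head-to-head heat shock element GAANNTTC.
Hspa1a: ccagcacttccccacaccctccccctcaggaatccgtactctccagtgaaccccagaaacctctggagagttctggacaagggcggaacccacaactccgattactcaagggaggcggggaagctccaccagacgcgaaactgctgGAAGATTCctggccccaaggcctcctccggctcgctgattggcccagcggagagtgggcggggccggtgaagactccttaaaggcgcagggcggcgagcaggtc
Hspa1b: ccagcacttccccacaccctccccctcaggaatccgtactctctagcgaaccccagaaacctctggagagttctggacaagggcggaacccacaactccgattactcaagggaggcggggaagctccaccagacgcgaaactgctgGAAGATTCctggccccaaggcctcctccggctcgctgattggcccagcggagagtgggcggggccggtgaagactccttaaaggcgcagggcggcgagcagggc
The windows differed at 3 of 250 positions, and the GAANNTTC match lay 104 to 97 bases before the start in both. Hspa1a in WT vehicle mice read 20, 17.4, 20.6 and 24 CPM in sham and 47.3, 50, 30.9 and 55.9 CPM in stimulated slices. Hspa1a in T41B vehicle mice read 23.5, 22.8, 32 and 28.4 CPM in sham and 39.4, 41.6, 28.7 and 47.4 CPM in stimulated slices. Every WT stimulated slice lay above every WT sham slice, while in T41B the stimulated slice of Mouse1553 fell within the sham range. Hspa1a in WT BD10-2 mice read 26.9, 21.9 and 23.7 CPM in sham and 42.3, 47.4 and 57.5 CPM in stimulated slices. Hspa1a in T41B BD10-2 mice read 23.3, 23.9, 34.8, 24.3 and 29.9 CPM in sham and 47.7, 72.8, 34.8, 57.5 and 42.7 CPM in stimulated slices. The groups did not overlap under BD10-2 in WT and touched at 34.8 CPM in T41B, where Mouse1564 was high in both of its slices. The log2 fold changes of Hspa1a were 1.16 ± 0.20 (SE, adjusted p = 9.21e-05) in WT vehicle, 0.56 ± 0.19 (SE, adjusted p = 0.0371) in T41B vehicle, 1.02 ± 0.22 (SE, adjusted p = 0.00256) in WT BD10-2 and 0.91 ± 0.17 (SE, adjusted p = 0.000194) in T41B BD10-2 slices. The T41B vehicle call was lost without Mouse1510, Mouse1551 or Mouse1579 (lowest log2 fold change 0.46) and without the choroid-rich samples, which left 2 mice, at 0.74 ± 0.27 (SE, adjusted p = 0.124).

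Hspa1b in WT vehicle mice read 19.1, 16.1, 18.5 and 23.5 CPM in sham and 33.7, 38.2, 29.8 and 49.4 CPM in stimulated slices. Hspa1b in T41B vehicle mice read 25.4, 23.6, 28.6 and 24.8 CPM in sham and 42.6, 39.8, 36.6 and 37.4 CPM in stimulated slices. All stimulated slices lay above all sham slices in both genotypes. Hspa1b in WT BD10-2 mice read 26, 18.5 and 21.8 CPM in sham and 43, 35 and 43.7 CPM in stimulated slices. Hspa1b in T41B BD10-2 mice read 21, 22.8, 24, 23.8 and 19.9 CPM in sham and 34.5, 57.2, 37.8, 43.9 and 36.9 CPM in stimulated slices. Ranges were again apart in both genotypes. Hspa1b had log2 fold changes of 0.96 ± 0.15 (SE, adjusted p = 2.79e-05), 0.61 ± 0.15 (SE, adjusted p = 0.00279), 0.87 ± 0.17 (SE, adjusted p = 0.000709) and 0.92 ± 0.13 (SE, adjusted p = 3.22e-06) in WT vehicle, T41B vehicle, WT BD10-2 and T41B BD10-2 slices, or 1.95-, 1.53-, 1.83- and 1.89-fold. Its 4 calls held when any single mouse was left out, and the T41B vehicle call was lost without the choroid-rich samples, at 0.67 ± 0.22 (SE, adjusted p = 0.0772).

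**Figure D2:**
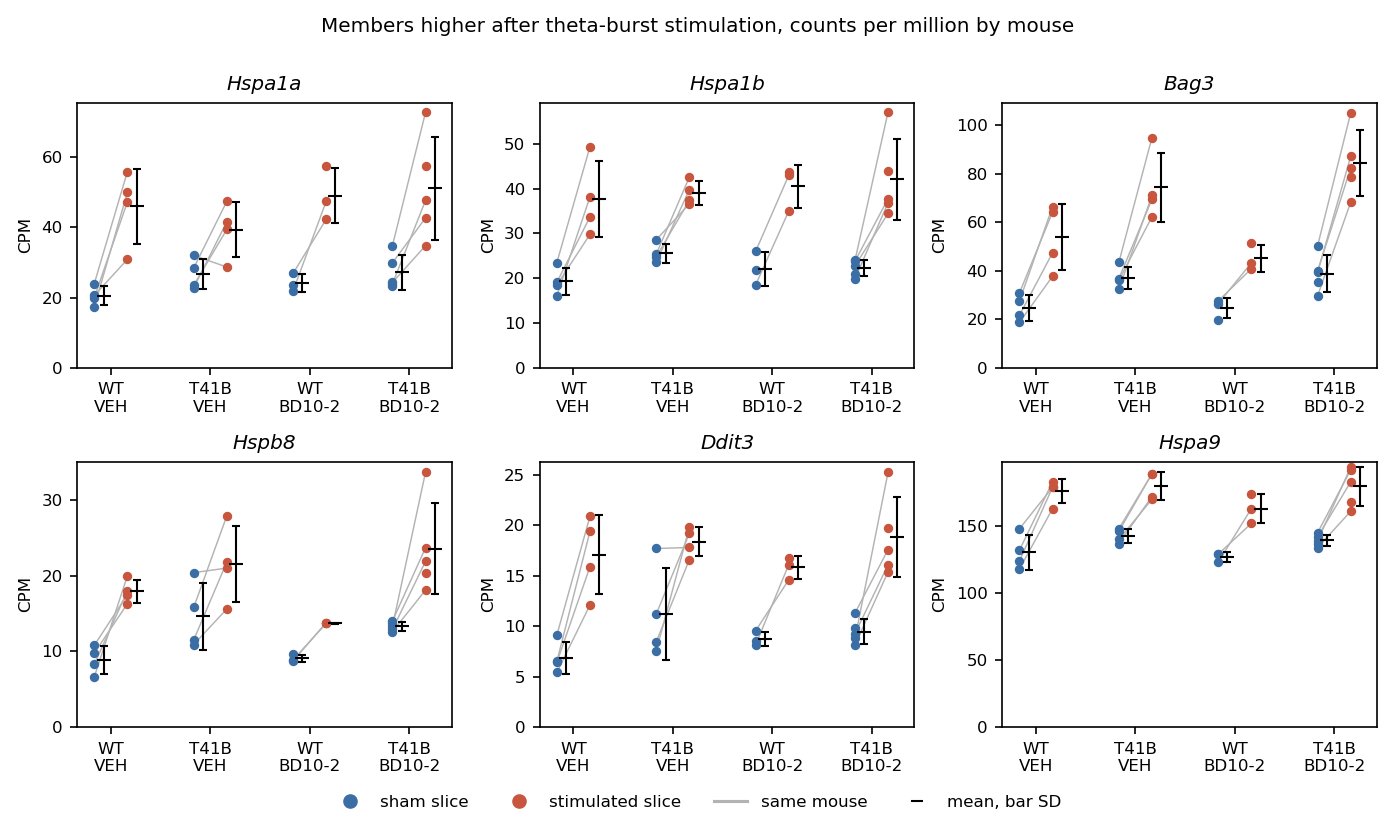
Points give CPM (vertical axis, from 0) of 6 genes in each sham (blue) and stimulated (red) slice for the 4 combinations of genotype and treatment. Grey lines join slices of the same mouse, and black marks give mean and SD; in Hspa1b, Bag3 and Hspa9 every stimulated point lies above every sham point of its combination.

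Hspa8, the constitutive cytosolic Hsp70, was not called in any of the 4 combinations, with log2 fold changes from -0.03 to 0.17 and levels of 911 to 1460 CPM. With the mouse as a block it was called higher in WT vehicle slices, at 0.16 ± 0.05 (SE, adjusted p = 0.0408). Hspa4 and Hsph1, nucleotide exchange factors of the Hsp110 type, Hspa12a, Hspa14 and Hspa1l were not called in any single combination either. Hspa2, an Hsp70 best known from the testis, was called higher in T41B BD10-2 slices only among the 4, at 0.29 ± 0.09 (SE, adjusted p = 0.0167) (lost without Mouse1570), and with the mouse as a block also in WT vehicle slices, at 0.25 ± 0.06 (SE, adjusted p = 0.00928). Hspa4l, another Hsp110-type gene, was called lower in T41B BD10-2 slices, at -0.22 ± 0.07 (SE, adjusted p = 0.0274), a call lost with the mouse as a block at -0.16 ± 0.06 (SE, adjusted p = 0.0867) and without Mouse1557, Mouse1563, Mouse1564 or Mouse1572. With that block Hspa4l was called lower in T41B vehicle slices, at -0.18 ± 0.06 (SE, adjusted p = 0.0426).

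Bag3 (ENSMUSG00000030847, chr7:128523616-128546981, plus strand) encodes a nucleotide exchange factor of Hsp70 that, with Hspb8, directs misfolded proteins to autophagy. Bag3 in WT vehicle mice read 21.6, 18.7, 30.8 and 27.5 CPM in sham and 47.4, 37.7, 64.2 and 66.4 CPM in stimulated slices. Bag3 in T41B vehicle mice read 36.7, 32.3, 43.4 and 36 CPM in sham and 69.4, 71, 94.8 and 62.2 CPM in stimulated slices. Stimulated values were near double the sham values of the same combination and did not overlap them. Bag3 in WT BD10-2 mice read 26.4, 27.5 and 19.8 CPM in sham and 43.2, 40.8 and 51.4 CPM in stimulated slices. Bag3 in T41B BD10-2 mice read 35.3, 39.8, 50.2, 39.3 and 29.6 CPM in sham and 82.3, 105, 87.1, 78.8 and 68.2 CPM in stimulated slices. Mouse1564 had the highest value of both T41B BD10-2 groups, and the ranges stayed apart. Tests of Bag3 gave log2 fold changes of 1.13 ± 0.18 (SE, adjusted p = 5.49e-05), 1.0 ± 0.18 (SE, adjusted p = 0.000123), 0.88 ± 0.21 (SE, adjusted p = 0.00593) and 1.12 ± 0.16 (SE, adjusted p = 3.29e-06) in the same order, or 2.18-, 2.01-, 1.84- and 2.17-fold. The WT BD10-2 call was lost without Mouse1590. The Bag3 promoter (chr7:128523333-128523582, plus strand, GRCm38.p6) is shown as that of the member with the largest mean change; its 250 bases before the start held no match to the motifs searched, and a GAANNTTC match lay 43 to 50 bases after the start.
Bag3: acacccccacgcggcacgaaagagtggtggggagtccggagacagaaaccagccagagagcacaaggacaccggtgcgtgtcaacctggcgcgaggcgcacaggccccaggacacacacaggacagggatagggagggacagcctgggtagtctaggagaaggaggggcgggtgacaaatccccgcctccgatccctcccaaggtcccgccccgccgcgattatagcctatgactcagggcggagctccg

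Among the J-domain proteins, which start the Hsp70 cycle, Dnaja1 was called higher in WT vehicle and T41B BD10-2 slices. Dnaja1 in WT vehicle mice read 136, 141, 166 and 137 CPM in sham and 164, 170, 168 and 189 CPM in stimulated slices. Dnaja1 in T41B BD10-2 mice read 140, 162, 133, 132 and 135 CPM in sham and 186, 161, 176, 161 and 155 CPM in stimulated slices. The ranges overlapped in both, since the sham slices of Mouse1522 and Mouse1563 were high. Dnaja1 in T41B vehicle mice read 147, 145, 148 and 157 CPM in sham and 158, 169, 179 and 157 CPM in stimulated slices. Dnaja1 in WT BD10-2 mice read 152, 149 and 149 CPM in sham and 172, 160 and 166 CPM in stimulated slices. In these 2 combinations the ranges met or lay just apart, with no call. For Dnaja1, the log2 fold changes were 0.25 ± 0.07 (SE, adjusted p = 0.023), 0.15 ± 0.07 (SE, adjusted p = 0.148), 0.14 ± 0.08 (SE, adjusted p = 0.331) and 0.25 ± 0.07 (SE, adjusted p = 0.0049). The WT vehicle call was lost without Mouse1509, Mouse1513 or Mouse1524. Dnaja4 was called lower in T41B vehicle slices, at -0.30 ± 0.09 (SE, adjusted p = 0.0201), lost without Mouse1551 or Mouse1553 and without the choroid-rich samples at -0.15 ± 0.12 (SE, adjusted p = 0.531). Dnajb1, the main stress-inducible partner of Hspa1a, was not called in any combination (-0.02 to 0.29), and with the mouse as a block was called higher in WT vehicle slices at 0.28 ± 0.08 (SE, adjusted p = 0.0218). Dnajb4, Dnajb5 and Dnajb6 had no call in a single combination.

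Hsp90aa1 encodes the inducible cytosolic Hsp90. Hsp90aa1 in WT vehicle mice read 603, 560, 671 and 625 CPM in sham and 693, 679, 701 and 818 CPM in stimulated slices. Hsp90aa1 in T41B BD10-2 mice read 618, 623, 565, 563 and 553 CPM in sham and 713, 677, 711, 623 and 620 CPM in stimulated slices. Only the WT vehicle ranges were apart, and Mouse1524 had the highest stimulated value. Hsp90aa1 in T41B vehicle mice read 603, 595, 694 and 649 CPM in sham and 607, 652, 683 and 642 CPM in stimulated slices. Hsp90aa1 in WT BD10-2 mice read 630, 605 and 634 CPM in sham and 670, 613 and 686 CPM in stimulated slices. These ranges overlapped. The log2 fold changes of Hsp90aa1 were 0.23 ± 0.07 (SE, adjusted p = 0.0359), 0.02 ± 0.07 (SE, adjusted p = 0.859), 0.07 ± 0.09 (SE, adjusted p = 0.671) and 0.19 ± 0.07 (SE, adjusted p = 0.0324), with calls in WT vehicle and T41B BD10-2 slices. The first was lost without Mouse1509, Mouse1513 or Mouse1524 and the second without Mouse1563, Mouse1564 or Mouse1570. The constitutive Hsp90ab1 had no call in a single combination (0.04 to 0.21), nor had the co-chaperones Stip1, Fkbp4 and Ahsa1. With the mouse as a block, Hsp90ab1 was called higher in WT vehicle slices, at 0.20 ± 0.06 (SE, adjusted p = 0.0252), and Ahsa1 lower in T41B vehicle slices, at -0.18 ± 0.06 (SE, adjusted p = 0.0294). Cacybp was called higher in WT vehicle slices at 0.31 ± 0.09 (SE, adjusted p = 0.0226), a call lost without Mouse1513 or Mouse1524.

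Chordc1 (ENSMUSG00000001774, chr9:18292125-18317442, plus strand), an Hsp90 partner, moved the other way. Chordc1 in T41B vehicle mice read 35.8, 34.9, 30.8 and 30.3 CPM in sham and 24.2, 24.4, 23.1 and 24.7 CPM in stimulated slices. Chordc1 in WT BD10-2 mice read 42.7, 44 and 38.9 CPM in sham and 32.2, 32.6 and 24.5 CPM in stimulated slices. In both combinations each stimulated slice was below each sham slice. Chordc1 in T41B BD10-2 mice read 30.5, 33.5, 28.4, 27.1 and 31.2 CPM in sham and 25, 18, 23.6, 23.4 and 27.4 CPM in stimulated slices. Chordc1 in WT vehicle mice read 27.9, 40.1, 35.3 and 29.9 CPM in sham and 27.8, 32.6, 27.4 and 25.9 CPM in stimulated slices. These ranges overlapped, and Mouse1509 had nearly the same value in both slices. Chordc1 had log2 fold changes of -0.23 ± 0.11 (SE, adjusted p = 0.21) in WT vehicle, -0.45 ± 0.12 (SE, adjusted p = 0.00506) in T41B vehicle, -0.50 ± 0.13 (SE, adjusted p = 0.014) in WT BD10-2 and -0.36 ± 0.10 (SE, adjusted p = 0.0108) in T41B BD10-2 slices. The WT BD10-2 call was lost without Mouse1565, Mouse1571 or Mouse1586, and the T41B vehicle call without the choroid-rich samples, at -0.44 ± 0.17 (SE, adjusted p = 0.158), a similar change with a wider error.

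Hspb8 (ENSMUSG00000041548, chr5:116408491-116422864, minus strand) encodes the small heat shock protein that works with Bag3. Hspb8 in WT vehicle mice read 6.64, 8.29, 10.8 and 9.76 CPM in sham and 20, 18, 17.5 and 16.3 CPM in stimulated slices. Hspb8 in T41B vehicle mice read 11.5, 15.8, 20.4 and 10.9 CPM in sham and 21.8, 27.9, 21 and 15.6 CPM in stimulated slices. The WT ranges were apart, and in T41B the sham slice of Mouse1553 was above the stimulated slice of Mouse1579. Hspb8 in WT BD10-2 mice read 8.88, 8.72 and 9.63 CPM in sham and 13.7, 13.8 and 13.7 CPM in stimulated slices. Hspb8 in T41B BD10-2 mice read 13.8, 12.9, 13.3, 14 and 12.6 CPM in sham and 21.9, 33.7, 23.7, 20.4 and 18.1 CPM in stimulated slices. Both pairs of ranges were apart. Tests of Hspb8 gave log2 fold changes of 1.02 ± 0.19 (SE, adjusted p = 0.000264), 0.55 ± 0.18 (SE, adjusted p = 0.0254), 0.60 ± 0.21 (SE, adjusted p = 0.0714) and 0.82 ± 0.16 (SE, adjusted p = 0.000291), so the WT BD10-2 change alone missed the threshold. The T41B vehicle call was lost without Mouse1510 or Mouse1551. Cryab, the alpha-crystallin of glia and lens, was not called in a single combination (-0.12 to 0.58) and was called higher in the mean, at 0.32 ± 0.10 (SE, adjusted p = 0.011). With the mouse as a block it was called in WT vehicle slices, at 0.56 ± 0.18 (SE, adjusted p = 0.0333).

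Hspb1 (Hsp27, ENSMUSG00000004951, chr5:135887919-135889563, plus strand) differed in sign between combinations. Hspb1 in WT BD10-2 mice read 6.93, 5.9 and 6.28 CPM in sham and 2.84, 4.59 and 3.81 CPM in stimulated slices. Hspb1 in T41B BD10-2 mice read 5.9, 7.31, 10.1, 7.92 and 7.52 CPM in sham and 13, 14.9, 7.89, 9.67 and 7.09 CPM in stimulated slices. WT stimulated slices were all below WT sham slices, and the T41B stimulated slices of Mouse1563 and Mouse1564 were the 2 highest of the 32 samples. Hspb1 in WT vehicle mice read 4.86, 3.75, 5.03 and 4.45 CPM in sham and 4.95, 3.91, 3.54 and 3.93 CPM in stimulated slices. Hspb1 in T41B vehicle mice read 7, 6.57, 5.31 and 5.77 CPM in sham and 6.41, 9.08, 6.55 and 6.7 CPM in stimulated slices. Ranges overlapped in both vehicle combinations. Log2 fold changes of Hspb1 after stimulation were -0.78 ± 0.23 (SE, adjusted p = 0.0302) in WT BD10-2, 0.44 ± 0.17 (SE, adjusted p = 0.064) in T41B BD10-2, -0.15 ± 0.21 (SE, adjusted p = 0.702) in WT vehicle and 0.22 ± 0.20 (SE, adjusted p = 0.464) in T41B vehicle slices. The only edgeR call, that in WT BD10-2 slices, was lost with the mouse as a block at -0.85 ± 0.25 (SE, adjusted p = 0.057), with the first library only, and without Mouse1565, Mouse1586 or Mouse1590. DESeq2 also called Hspb1 higher in T41B BD10-2 slices. Hspb1 was low, and the 2 libraries of the same mouse and stimulation differed by up to 2.39 times (4.05 and 9.67 CPM for Mouse1592, stimulated), which may be spread between libraries or between slices. The heat shock factors Hsf1 and Hsf2 were not called in any comparison. In other fits Hsf2 was called lower after stimulation in the mean without the choroid-rich samples, at -0.23 ± 0.09 (SE, adjusted p = 0.0434), and lower in T41B in the mean with the first library only or without Mouse1563 or Mouse1579, against -0.19 ± 0.08 (SE, adjusted p = 0.0734) with all samples.

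Hspa9 (mortalin), the Hsp70 of the mitochondrial matrix, rose by a small and even amount. Hspa9 in WT vehicle mice read 124, 118, 148 and 132 CPM in sham and 179, 163, 179 and 183 CPM in stimulated slices. Hspa9 in T41B vehicle mice read 137, 146, 148 and 140 CPM in sham and 172, 189, 189 and 170 CPM in stimulated slices. Each stimulated slice was above each sham slice. Hspa9 in WT BD10-2 mice read 123, 129 and 129 CPM in sham and 163, 152 and 174 CPM in stimulated slices. Hspa9 in T41B BD10-2 mice read 137, 142, 139, 145 and 134 CPM in sham and 183, 194, 192, 168 and 161 CPM in stimulated slices. The same held under BD10-2. For Hspa9, the log2 fold changes were 0.43 ± 0.07 (SE, adjusted p = 5.31e-05), 0.33 ± 0.07 (SE, adjusted p = 0.000814), 0.37 ± 0.08 (SE, adjusted p = 0.00303) and 0.36 ± 0.06 (SE, adjusted p = 5.54e-05), or 1.26- to 1.35-fold. The WT BD10-2 call was lost without Mouse1565 and the T41B vehicle call without the choroid-rich samples, at 0.30 ± 0.10 (SE, adjusted p = 0.0807). Hspd1 and Hspe1, the mitochondrial chaperonin Hsp60 and its lid Hsp10, which lie head to head with overlapping exons, were not called in any comparison and stood between -0.19 and 0.15 (log2 fold change) in the 4 combinations.

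Among the endoplasmic reticulum chaperones and unfolded protein response factors, Ddit3 (Chop, ENSMUSG00000025408, chr10:127290774-127296288, plus strand), a nuclear transcription factor at the end of the Perk and Atf4 branch, had the largest mean change. Ddit3 in WT vehicle mice read 6.52, 6.41, 5.41 and 9.12 CPM in sham and 19.4, 15.9, 12.1 and 20.9 CPM in stimulated slices. Ddit3 in T41B vehicle mice read 7.56, 11.2, 17.7 and 8.45 CPM in sham and 19.8, 19.2, 17.8 and 16.6 CPM in stimulated slices. The WT ranges were apart, and the T41B sham slice of Mouse1553, at 17.7 CPM, was nearly as high as its stimulated slice. Ddit3 in WT BD10-2 mice read 9.54, 8.14 and 8.55 CPM in sham and 14.6, 16.1 and 16.8 CPM in stimulated slices. Ddit3 in T41B BD10-2 mice read 9.84, 8.14, 8.78, 11.3 and 9.27 CPM in sham and 15.4, 25.3, 17.6, 19.7 and 16.1 CPM in stimulated slices. Under BD10-2 the ranges were apart in both genotypes. The log2 fold changes of Ddit3 were 1.31 ± 0.21 (SE, adjusted p = 3.85e-05), 0.71 ± 0.20 (SE, adjusted p = 0.00982), 0.85 ± 0.23 (SE, adjusted p = 0.0161) and 0.99 ± 0.18 (SE, adjusted p = 0.000103), or 2.48-, 1.64-, 1.8- and 1.99-fold. The WT BD10-2 call was lost with the mouse as a block at 0.78 ± 0.24 (SE, adjusted p = 0.0675) and without Mouse1565, Mouse1571 or Mouse1590, and the T41B vehicle call without Mouse1510 or Mouse1551. Without the choroid-rich samples the T41B vehicle value of Ddit3 was 1.18 ± 0.24 (SE, adjusted p = 0.00309). Exons of Ddit3 overlap those of Mars on the opposite strand, and the strand setting of the counting is not given in the sources used here. Exons of Hspa1a (with Gm20481), Hspa12a (Eno4), Dnaja1 (Smu1), Dnaja4 (Wdr61), Dnajb6 (Gm5129) and Cryab (Hspb2) overlap protein-coding genes of the opposite strand in the same way.

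Dnajb9 (ERdj4, ENSMUSG00000014905, chr12:44205559-44210326, minus strand) encodes a J-domain partner of Hspa5 and is a target of spliced Xbp1. Dnajb9 in WT vehicle mice read 22.1, 28.5, 31.4 and 21.1 CPM in sham and 37.3, 43, 35.1 and 34.4 CPM in stimulated slices. Dnajb9 in T41B vehicle mice read 28.9, 26.1, 20.1 and 22.9 CPM in sham and 35.9, 42.7, 33.5 and 26.5 CPM in stimulated slices. Only the WT vehicle ranges were apart. Dnajb9 in WT BD10-2 mice read 26.5, 32.3 and 22.1 CPM in sham and 36.7, 37.8 and 31.3 CPM in stimulated slices. Dnajb9 in T41B BD10-2 mice read 25.9, 33.5, 24.4, 21 and 20.2 CPM in sham and 46.3, 34.5, 33, 31.4 and 27.8 CPM in stimulated slices. Mouse1571 and Mouse1563 had the highest sham values. Dnajb9 had log2 fold changes of 0.54 ± 0.17 (SE, adjusted p = 0.0338), 0.50 ± 0.17 (SE, adjusted p = 0.0331), 0.39 ± 0.19 (SE, adjusted p = 0.231) and 0.47 ± 0.15 (SE, adjusted p = 0.0247). The WT vehicle call was lost without Mouse1509, Mouse1513 or Mouse1524, the T41B vehicle call without Mouse1551 or Mouse1553, the T41B BD10-2 call without Mouse1564 or Mouse1570, and both vehicle calls without the choroid-rich samples, at 0.42 ± 0.20 (SE, adjusted p = 0.176) in WT and 0.27 ± 0.24 (SE, adjusted p = 0.599) in T41B.

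Xbp1 (ENSMUSG00000020484, chr11:5520659-5525893, plus strand) encodes the transcription factor that Ire1 activates by splicing its messenger RNA, which gene counts do not show. Xbp1 in WT vehicle mice read 37.5, 32.8, 42.2 and 39.5 CPM in sham and 50.4, 46.1, 48.5 and 55.4 CPM in stimulated slices. Xbp1 in T41B vehicle mice read 46.3, 43.4, 42.6 and 47.7 CPM in sham and 55, 60.1, 57.7 and 55.3 CPM in stimulated slices. Both pairs of ranges were apart. Xbp1 in WT BD10-2 mice read 50.1, 45 and 38.9 CPM in sham and 56.5, 52.8 and 50.3 CPM in stimulated slices. Xbp1 in T41B BD10-2 mice read 39.5, 41.1, 44, 46.7 and 37.2 CPM in sham and 51.7, 59.2, 58.5, 62.9 and 55.2 CPM in stimulated slices. Both pairs were apart here as well. Tests of Xbp1 gave log2 fold changes of 0.40 ± 0.09 (SE, adjusted p = 0.00208), 0.34 ± 0.09 (SE, adjusted p = 0.00422), 0.25 ± 0.10 (SE, adjusted p = 0.115) and 0.47 ± 0.08 (SE, adjusted p = 2.99e-05). Its 3 calls held when any single mouse was left out, and the T41B vehicle call was lost without the choroid-rich samples, at 0.23 ± 0.13 (SE, adjusted p = 0.359).

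Hspa5 (BiP, ENSMUSG00000026864, chr2:34771970-34777547, plus strand), the Hsp70 of the endoplasmic reticulum, was called higher in WT vehicle and T41B BD10-2 slices. Hspa5 in WT vehicle mice read 157, 166, 219 and 209 CPM in sham and 241, 222, 257 and 256 CPM in stimulated slices. Hspa5 in T41B vehicle mice read 253, 291, 216 and 287 CPM in sham and 308, 321, 295 and 275 CPM in stimulated slices. The WT ranges were just apart, and the T41B ranges overlapped. Hspa5 in WT BD10-2 mice read 248, 228 and 201 CPM in sham and 264, 251 and 243 CPM in stimulated slices. Hspa5 in T41B BD10-2 mice read 235, 300, 316, 243 and 254 CPM in sham and 366, 388, 323, 334 and 295 CPM in stimulated slices. Sham and stimulated ranges overlapped under BD10-2. For Hspa5, the log2 fold changes were 0.38 ± 0.11 (SE, adjusted p = 0.0255), 0.19 ± 0.11 (SE, adjusted p = 0.23), 0.16 ± 0.13 (SE, adjusted p = 0.501) and 0.34 ± 0.10 (SE, adjusted p = 0.0138). The WT vehicle call was lost without Mouse1509, Mouse1513 or Mouse1524, and the T41B BD10-2 call without Mouse1557 and with only the first library of each mouse and stimulation. Dnajc3, an inhibitor of eIF2alpha kinases and Hspa5 partner, was called higher in T41B BD10-2 slices at 0.25 ± 0.08 (SE, adjusted p = 0.0268), lost without Mouse1557, Mouse1563 or Mouse1564. Hsp90b1 (Grp94), Hspa13 and Dnajb11 were not called in any comparison, except that Hsp90b1 was called in the mean stimulation comparison without Mouse1553.

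Promoters of Ddit3 (chr10:127290543-127290792) and Hspa5 (chr2:34771840-34772089), plus strand, GRCm38.p6, are shown as examples of the unfolded protein response factors and of the endoplasmic reticulum chaperones, with the 1 motif match, an endoplasmic reticulum stress element of Hspa5 (CCAAT, 9 bases, CCACG) 65 to 47 bases before the RefSeq start, in capitals. The GENCODE M21 gene starts lie within both stretches.
Ddit3: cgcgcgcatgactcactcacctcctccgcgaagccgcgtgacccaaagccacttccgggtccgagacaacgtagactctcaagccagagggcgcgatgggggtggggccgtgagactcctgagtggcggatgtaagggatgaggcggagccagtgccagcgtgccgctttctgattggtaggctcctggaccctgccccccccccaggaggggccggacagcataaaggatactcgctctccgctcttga
Hspa5: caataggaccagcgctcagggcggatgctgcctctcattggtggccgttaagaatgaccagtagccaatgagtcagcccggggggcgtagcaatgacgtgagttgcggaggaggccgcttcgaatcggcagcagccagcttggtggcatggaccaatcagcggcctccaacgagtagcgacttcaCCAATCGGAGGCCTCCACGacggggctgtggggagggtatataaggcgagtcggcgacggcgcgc
In RefSeq promoter windows of 300 bases (50 of them after the start), 33 of the 40 members had an entry, with 44 promoters in all since a gene can have several. The stress element was found in 3 of the 44 (those of Hspa5, Hsp90b1 and Dnajc3) and in 0.119% of all 32851 promoters. The core TGACGTGG of the unfolded protein response element was found in 0 of the 44 and in 0.676% of all promoters. A head-to-head element GAANNTTC or its tail-to-tail form TTCNNGAA, read on both strands, was found in 16 of the 44, from 14 members, and in 15.1% of all promoters. Among the members with a match, Hspa1a, Hspa1b, Bag3, Dnaja1 and Hspb8 were called higher in 2 or more stimulation comparisons, Chordc1 was called lower in 3, Dnaja4 and Hspb1 lower in 1 each, and Hspd1, Hspe1, Hsph1, Dnajb4, Dnajb6 and Fkbp4 had no call in a single one. The longer form with 3 alternating units was found in 7 of the 44, from 5 members (Chordc1, Dnajb6, Hspd1, Hspe1 and Hsph1), of which none was called higher in a single combination, and in 0.603% of all promoters. Both forms overlap the 2-unit motifs, and a match describes these letters only.

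Both slices of a mouse were also compared within that mouse. Over the 14 mice with both slices, Hspa1b, Dnaja1, Bag3, Hspb8, Hspa9, Dnajb9, Xbp1 and Ddit3 were higher in the stimulated slice of 14 of 14 mice, Hspa1a in 13 and Chordc1 lower in 14 of 14. Of all genes tested, 9.08% were higher in all 14 mice and 5.34% lower. The mean difference in log2(CPM + 1) was 0.99 ± 0.20 (SD, n = 14 mice) for Bag3, 0.91 ± 0.38 for Ddit3, 0.81 ± 0.40 for Hspa1a, 0.78 ± 0.24 for Hspa1b, 0.74 ± 0.35 for Hspb8, 0.37 ± 0.09 for Hspa9 and -0.34 ± 0.17 for Chordc1. Mouse1553 had the smallest difference of Hspa1a (-0.15), Hspb8 (0.04) and Ddit3 (0.01).

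**Figure D3:**
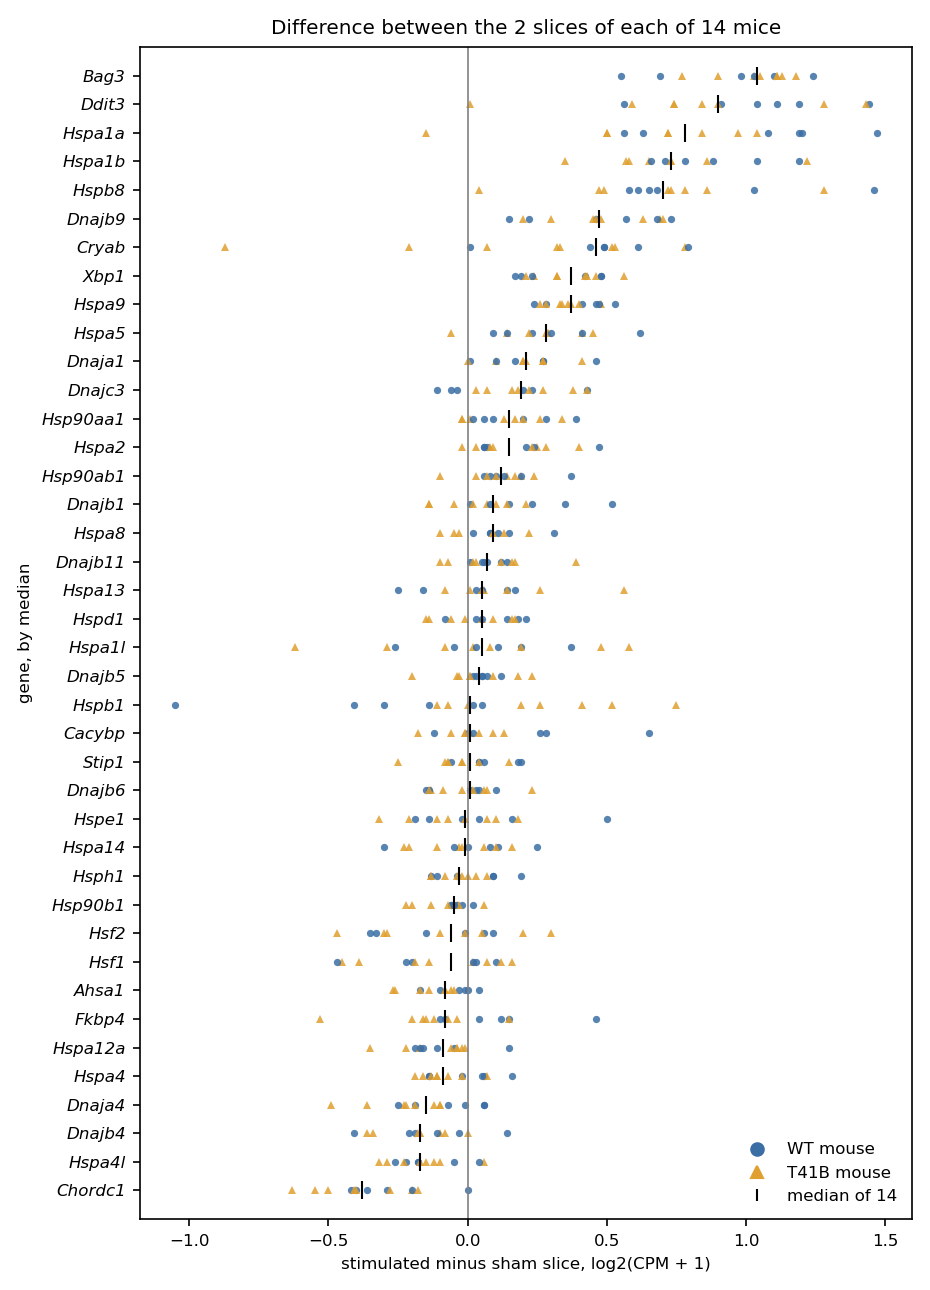
Each point is the stimulated minus the sham slice of 1 mouse in log2(CPM + 1) for the gene in that row, blue circles for WT and orange triangles for T41B mice, with the median of 14 mice as a black tick. Genes run from Chordc1 at the bottom (median -0.38) to Bag3 at the top (median 1.04), and the orange points far to the left for Hspa1a, Hspb8, Ddit3 and Cryab are Mouse1553.

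The other genes of these pathways were taken from lists of the same kind. Of 7 targets of the integrated stress response, 6 were called higher after stimulation in the mean comparison and 0 lower: Trib3 rose by a log2 fold change of 2.76 ± 0.26 (SE), Chac1 by 1.34 ± 0.13 and Nupr1 by 1.22 ± 0.12, each called in all 4 combinations. Of 20 other endoplasmic reticulum genes, 10 were called higher and 4 lower. Atf4, the factor of that response, rose by 0.99 ± 0.07, Ern1 (Ire1) by 0.67 ± 0.06 and the ubiquitin ligase Syvn1 by 0.43 ± 0.05, again in all 4 combinations, while Sdf2l1 stood at -0.50 ± 0.09 and Dnajc10 at -0.30 ± 0.04. Of 23 other cytosolic chaperones and their partners, 8 were called higher and 2 lower, with the small heat shock protein Hspb6 at 0.42 ± 0.12 and Fkbp5 at -0.26 ± 0.06. Hspb6 was called in 0 of the 4 single combinations and Fkbp5 in 2. Of 9 other mitochondrial genes, 1 was called higher (Clpx, a protease subunit, at 0.34 ± 0.04) and 2 lower (Hscb at -0.34 ± 0.12 and Dnaja3 at -0.21 ± 0.05). In the mean comparison 46.8% of all genes were called in either direction.

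T41B slices were compared with WT slices under each treatment and stimulation. In the mean of the 4 comparisons, the members called higher in T41B were the small heat shock proteins Hspb1, Hspb8 and Cryab, the co-chaperone Bag3, Hspa2, Hspa9, the endoplasmic reticulum chaperones Hspa5 and Dnajc3, and the factor Ddit3, and those called lower were Hspa4l, Hspa12a and Chordc1. Of these, the mean calls of Cryab, Hspa9, Dnajc3, Ddit3 and Chordc1 were lost with batch as a covariate, and those of Cryab, Hspa9 and Ddit3 also without the choroid-rich samples, at 0.25 ± 0.10 (SE, adjusted p = 0.101), 0.08 ± 0.04 (SE, adjusted p = 0.236) and 0.19 ± 0.10 (SE, adjusted p = 0.227). In vehicle sham slices 5 members were called higher (12.5%, against 5% of all genes) and 0 lower (1.24%), where 6.24% of all genes were called in either direction. In vehicle stimulated slices 1 was called higher (2.5%, against 4.74%) and 1 lower (2.5%, against 1.05%), with 5.79% of all genes called in either direction. BD10-2 sham slices had 1 higher (2.5%, against 4.31%) and 2 lower (5%, against 1.14%), with 5.45% of all genes called. BD10-2 stimulated slices had 6 higher (15%, against 8.19%) and 1 lower (2.5%, against 2.36%). The mean of the 4 had 9 higher (22.5%, against 16.5%) and 3 lower (7.5%, against 15.1%), with a median log2 fold change of 0.05 against -0.01 over all genes. Ranges did not overlap for 6, 6, 7 and 7 members in that order (15%, 15%, 17.5% and 17.5%), against 9.58%, 11.1%, 17.7% and 14.8% of all genes. With batch as a covariate 0 members were called in vehicle sham slices and 7 in the mean. Without the choroid-rich samples 1 was called in vehicle sham slices (Hspa5), 0 in vehicle stimulated slices, and 9 in the mean (6 higher, 3 lower). Shares of all genes called in these 2 fits are not given here. The shares above belong to the fit on all samples without batch. The mean comparison takes the 2 slices of a mouse as independent samples, although they share an animal and its genotype. A limma voom fit with an estimated correlation between slices of the same mouse (0.34) called 8 members higher and 3 lower, and 23.6% of all genes. The call lost was that of Ddit3, at 0.27 ± 0.12 (SE, adjusted p = 0.087 by limma). In edgeR the mean genotype call of Ddit3 was also lost without Mouse1513, Mouse1522, Mouse1553, Mouse1564, Mouse1565 or Mouse1571 and that of Hspa9 without Mouse1513, while the other 10 held when any single mouse was left out.

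Microglia and astrocyte markers were also higher in T41B. Of 8 microglia markers, 7, 4, 6 and 8 were called higher in vehicle sham, vehicle stimulated, BD10-2 sham and BD10-2 stimulated slices, with sums of 540 to 1013 CPM in T41B against 251 to 326 in WT vehicle sham slices. Of 6 astrocyte markers, 2, 2, 2 and 5 were called higher, and of 6 neuron markers 4 were called lower in the mean. The part of these shifts in the genotype results was not tested.

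Hspb1 showed the largest genotype difference among the members. The values above placed the stimulated BD10-2 slices of T41B mice at 7.09 to 14.9 CPM and those of WT mice at 2.84 to 4.59 CPM, with no overlap. Stimulated vehicle slices were also apart, at 6.41 to 9.08 CPM in T41B and 3.54 to 4.95 CPM in WT. Log2 fold changes of T41B over WT for Hspb1 were 0.44 ± 0.20 (SE, adjusted p = 0.204) in vehicle sham, 0.81 ± 0.20 (SE, adjusted p = 0.0119) in vehicle stimulated, 0.27 ± 0.20 (SE, adjusted p = 0.495) in BD10-2 sham and 1.49 ± 0.21 (SE, adjusted p = 1.61e-05) in BD10-2 stimulated slices. The BD10-2 stimulated call held when any single mouse was left out, and the vehicle stimulated call was lost without Mouse1522 or Mouse1551, with the first library only and without the choroid-rich samples, at 0.82 ± 0.29 (SE, adjusted p = 0.222). Within batches that held both genotypes, T41B was above WT in 7 of 7 values of batch and stimulation, by 0.23 to 1.07 in log2(CPM + 1). The 7 values came from 4 batches with 1 or 2 mice of a genotype each, and sham and stimulated values of a batch largely share mice, so they are not independent.

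Bag3 was higher in T41B with log2 fold changes of 0.59 ± 0.18 (SE, adjusted p = 0.0505), 0.46 ± 0.18 (SE, adjusted p = 0.139), 0.65 ± 0.19 (SE, adjusted p = 0.0371) and 0.90 ± 0.19 (SE, adjusted p = 0.00126), called in the BD10-2 slices. T41B sham values of 29.6 to 50.2 CPM under BD10-2 lay above the WT values of 19.8 to 27.5 CPM, and stimulated values of 68.2 to 105 above 40.8 to 51.4. The sham call was lost without any one of Mouse1563, Mouse1564, Mouse1565, Mouse1570, Mouse1571 or Mouse1590, and with the first library only, while the stimulated call held in each of these fits. Hspb8 was higher by 0.73 ± 0.19 (SE, adjusted p = 0.0157), 0.26 ± 0.18 (SE, adjusted p = 0.482), 0.55 ± 0.19 (SE, adjusted p = 0.0891) and 0.77 ± 0.19 (SE, adjusted p = 0.00553). Its vehicle sham values were 10.9 to 20.4 CPM in T41B and 6.64 to 10.8 in WT, barely apart, and the call was lost without Mouse1509, Mouse1513 or Mouse1553, with batch as a covariate, and without the choroid-rich samples, at 0.34 ± 0.19 (SE, adjusted p = 0.763). Within batches, T41B was above WT in 6 of 7 values for Bag3 (-0.09 to 0.96) and in 6 of 7 for Hspb8 (-0.06 to 0.64).

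Hspa5 was higher in T41B by 0.48 ± 0.11 (SE, adjusted p = 0.00759), 0.30 ± 0.11 (SE, adjusted p = 0.133), 0.26 ± 0.12 (SE, adjusted p = 0.224) and 0.43 ± 0.12 (SE, adjusted p = 0.0138), called in vehicle sham and BD10-2 stimulated slices. Vehicle sham values were 216 to 291 CPM in T41B and 157 to 219 in WT, with Mouse1553 (216) the T41B slice inside the WT range. The vehicle sham call was lost with batch as a covariate and without Mouse1509 or Mouse1551, and the BD10-2 stimulated call without Mouse1571 or Mouse1586 and with the first library only. Within batches Hspa5 was higher in T41B in 7 of 7 values, by 0.03 to 0.46. Of the other endoplasmic reticulum chaperones and unfolded protein response factors, Ddit3 was called in vehicle sham slices at 0.71 ± 0.21 (SE, adjusted p = 0.0377) and Dnajc3 in BD10-2 stimulated slices at 0.35 ± 0.10 (SE, adjusted p = 0.0162), lost without Mouse1564 or Mouse1586 and with batch as a covariate. The Ddit3 call was lost without Mouse1509, Mouse1513, Mouse1522, Mouse1551 or Mouse1553, with batch as a covariate and without the choroid-rich samples, at 0.23 ± 0.22 (SE, adjusted p = 0.967).

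Hspa2 in vehicle sham slices read 53.6, 52.2, 58 and 58.6 CPM in WT and 66.7, 71, 83.8 and 70.3 CPM in T41B. Hspa2 in BD10-2 stimulated slices read 59.9, 59.4 and 65.8 CPM in WT and 71.5, 86.7, 88.4, 82.1 and 85.3 CPM in T41B. In both the T41B values were all higher. Hspa2 in vehicle stimulated slices read 55.9, 60.7, 68.9 and 81.4 CPM in WT and 68.3, 75.2, 89.1 and 69.5 CPM in T41B. Hspa2 in BD10-2 sham slices read 56.9, 57.1 and 55.4 CPM in WT and 68.5, 59.8, 71, 66.6 and 72.9 CPM in T41B. The vehicle stimulated values overlapped and the BD10-2 sham values did not. The log2 fold changes of Hspa2 were 0.39 ± 0.10 (SE, adjusted p = 0.0141), 0.18 ± 0.10 (SE, adjusted p = 0.359), 0.26 ± 0.10 (SE, adjusted p = 0.145) and 0.42 ± 0.10 (SE, adjusted p = 0.00568) in vehicle sham, vehicle stimulated, BD10-2 sham and BD10-2 stimulated slices. The vehicle sham call was lost without Mouse1513 or Mouse1553, with batch as a covariate and without the choroid-rich samples, at 0.31 ± 0.09 (SE, adjusted p = 0.141).

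Hspa4l was lower in T41B. Hspa4l in BD10-2 sham slices read 135, 140 and 153 CPM in WT and 127, 129, 111, 98.7 and 107 CPM in T41B. Hspa4l in BD10-2 stimulated slices read 119, 117 and 124 CPM in WT and 103, 94.7, 103, 93.6 and 97.8 CPM in T41B. Each T41B value was below each WT value. Hspa4l in vehicle sham slices read 138, 128, 157 and 134 CPM in WT and 134, 108, 122 and 124 CPM in T41B. Hspa4l in vehicle stimulated slices read 122, 123, 135 and 138 CPM in WT and 110, 100, 109 and 111 CPM in T41B. Vehicle sham values overlapped and vehicle stimulated values did not. Hspa4l had log2 fold changes of -0.19 ± 0.08 (SE, adjusted p = 0.168), -0.27 ± 0.08 (SE, adjusted p = 0.0459), -0.32 ± 0.08 (SE, adjusted p = 0.0191) and -0.28 ± 0.08 (SE, adjusted p = 0.0235). The vehicle stimulated call was lost when any 1 of the 8 mice was left out, and also with batch as a covariate, with DESeq2 size factors, with no low-count filter, with the first library only and without the choroid-rich samples, at -0.29 ± 0.11 (SE, adjusted p = 0.261); the BD10-2 sham call without Mouse1564, Mouse1570, Mouse1571, Mouse1590 or Mouse1592; and the BD10-2 stimulated call without Mouse1564, Mouse1565, Mouse1571, Mouse1572 or Mouse1586. Within batches T41B was lower in 7 of 7 values (-0.52 to -0.12). Chordc1 was called lower in T41B BD10-2 sham slices at -0.47 ± 0.12 (SE, adjusted p = 0.0114), lost without Mouse1565 or Mouse1571 and with batch as a covariate. Cryab was called higher in T41B vehicle sham slices at 0.70 ± 0.20 (SE, adjusted p = 0.0342), a call lost without Mouse1509, Mouse1513, Mouse1522, Mouse1551 or Mouse1553, with batch as a covariate and without the choroid-rich samples, at 0.22 ± 0.21 (SE, adjusted p = 0.968).

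**Figure D4:**
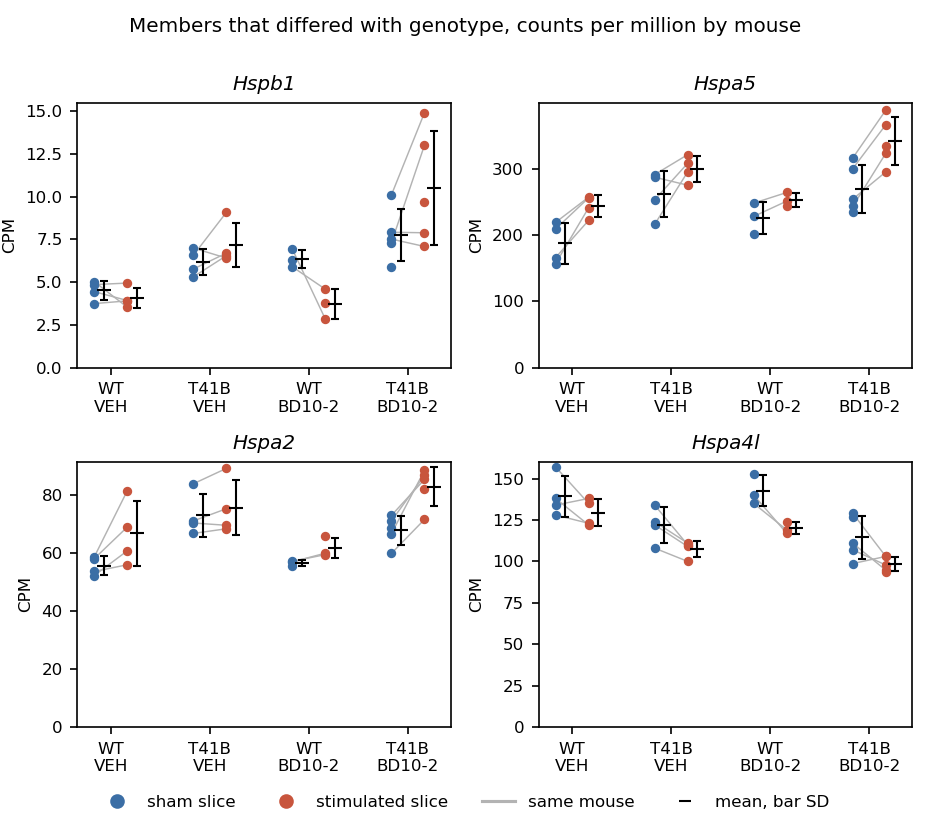
Points give CPM (vertical axis, from 0) of 4 genes in each sham (blue) and stimulated (red) slice, with grey lines between slices of the same mouse and black marks for mean and SD. Hspb1 is highest in the stimulated T41B BD10-2 slices (7.09 to 14.9 CPM), and for Hspa4l the T41B points lie below the WT points in all but the vehicle sham slices, where they overlap.

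Of the other pathway genes, 4 of 7 integrated stress response targets were called higher in T41B in the mean comparison and 0 lower, with Atf3 at 0.76 ± 0.08 (log2 fold change ± SE), Ppp1r15a (Gadd34) at 0.64 ± 0.07 and Nupr1 at 0.42 ± 0.12. Of 20 other endoplasmic reticulum genes 10 were called higher and 2 lower. Sdf2l1 stood at 0.46 ± 0.09 and Herpud1 at 0.33 ± 0.06, and the 2 called lower were Dnajc10 at -0.19 ± 0.04 and Sel1l at -0.11 ± 0.04. Of 23 other cytosolic genes 6 were called higher and 1 lower, with Hspb6 at 0.76 ± 0.12 and Ppid at -0.14 ± 0.04. Of 9 other mitochondrial genes 1 was called higher (Grpel1, 0.20 ± 0.06). In that comparison 31.5% of all genes were called in either direction.

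Whether the stimulation response differed between genotypes was tested as the difference of the differences. In vehicle mice 0 of 40 members were called by edgeR or by DESeq2, and 6 had an unadjusted p under 0.05. These were Hspa1a at -0.61 ± 0.27 (SE, adjusted p = 0.54), Cryab at -0.71 ± 0.28 (SE, adjusted p = 0.521), Ddit3 at -0.60 ± 0.28 (SE, adjusted p = 0.569), Cacybp, Hspe1 and Hspd1, each smaller in T41B. Under BD10-2, 0 were called by edgeR and 2 had an unadjusted p under 0.05, Hspb1 at 1.22 ± 0.29 (SE, adjusted p = 0.268) and Dnajc3 at 0.29 ± 0.13 (SE, adjusted p = 1). DESeq2 called Hspb1. Over all genes edgeR called 0% in either test, with 1683 and 846 genes at an unadjusted p under 0.05. The difference of the stimulation response between treatments gave 0 called members in WT and in T41B by both tools, with 1 at an unadjusted p under 0.05 in each, and 0% of all genes. A p above the threshold does not show that the responses were alike.

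BD10-2 against vehicle gave 0 called members in WT sham, WT stimulated, T41B sham and T41B stimulated slices and in their mean by edgeR and by DESeq2, and edgeR called 0% of all genes. At an unadjusted p under 0.05 there were 5, 3, 0, 4 and 6 of the 40 members, and 374, 1093, 431, 759 and 1249 of the 19478 genes tested. The median log2 fold changes of the 40 members were 0.06, -0.07, -0.08, 0.02 and 0.00. The largest was that of Hspb1 in the T41B stimulated slices at 0.54 ± 0.19 (SE, adjusted p = 1) among members at an unadjusted p under 0.05. No batch held both treatments, so batch and treatment cannot be told apart.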

How the data were processed

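Per the labels' protocols, libraries of hippocampal slice RNA (200 ng) were made with a stranded kit that removes ribosomal RNA. The authors deposited RSEM expected counts per gene, which are not scaled between libraries and of which 5.7% hold decimals. The submitters' processing notes name cutadapt 1.8.1, STAR 2.7.6a, RSEM 1.3.1, featureCounts 1.6, SAMtools 1.11 and the builds GRCm38.p6 and mm10; their order and the strand setting are not given in the sources used here. Library totals were 11597555 to 28125842 estimated reads, which limits the precision of low genes such as Hspa1l.

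The 2 libraries of 4 mouse and stimulation combinations were added (chi-square per degree of freedom 7.44 to 28.92 within such pairs and 6.37 to 69.5 between mice of a group, so neither copies the other). The 8 groups came from the labels. Counts were rounded, filtered with filterByExpr (minimum count 10), scaled by TMM and tested with edgeR 4.0.16 (quasi-likelihood F test, 1 coefficient per group), with p-values adjusted by the Benjamini-Hochberg method over 19478 genes and called under 0.05. SE is the absolute log2 fold change divided by the root of F. CPM uses the TMM library size, and exon lengths and coordinates come from GENCODE M21 (GRCm38). Mouse numbers were taken from the labels. Deviations from the group means had a mean correlation of 0.29 between slices of the same mouse (0.053 to 0.55 over 14 mice). Between different mice it was -0.078 (-0.52 to 0.44), a value that centring on small groups pulls below 0. Both slices of a mouse also came from the same batch, so a shared animal and a shared batch cannot be told apart by this measure. Alternatives were DESeq2 1.42.0, its size factors, no filter, the first library only, mouse as a block, batch as a covariate, each mouse left out, and, chosen after seeing the data, leaving out 6 samples with over 100 CPM of choroid plexus markers and, for the mean genotype and treatment comparisons, limma 3.58.1 (voom) with and without an estimated correlation between slices of the same mouse. The code was tested on simulated counts. The members and all lists were chosen with earlier results of these data known. Genes described in full were those called in 2 or more of 4 stimulation or of 4 genotype comparisons (15 genes); of each other list, up to 3 called genes in each direction were named by size of change. The values of 1 gene that this rule names are not reported here.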

Additional observations from a re-analysis of the deposited data

Results flagged for a closer look

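In 3 of the 90 combinations of a fully described gene and a group of 4 or 5 mice, 1 sample lay far from the others of its group, a gap over Dixon's 95% critical value that chance gives in about 1 of 20 groups. Dnaja1 read 162 CPM in the T41B BD10-2 sham slice of Mouse1563, and the next highest value was 140. Hsp90aa1 read 818 CPM in the WT vehicle stimulated slice of Mouse1524, next to 701. Hspb1 read 9.08 CPM in the T41B vehicle stimulated slice of Mouse1551, next to 6.7.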

How the results depend on the processing

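No called fold change of a member changed sign under any alternative run. Counts of called members moved by more than 1.5 times as follows. T41B against WT in vehicle sham slices had 5 called, 0 with batch as a covariate and 1 without the choroid-rich samples. In vehicle stimulated slices it had 2 called, 1 with DESeq2 size factors, 1 with no low-count filter, 0 with the first library only, 1 with batch as a covariate and 0 without the choroid-rich samples. The mean genotype comparison had 12 called and 7 with batch as a covariate. Stimulated against sham in T41B vehicle slices had 10 called and 3 without the choroid-rich samples, a fit with fewer samples. Genotype by stimulation under BD10-2 had 0 called and 1 with DESeq2. The cause of these changes was not tested. Except for limma, shares of all genes called in the alternative fits of this section are not given here. Leaving out 1 mouse at a time gave 7 to 12 called members for stimulation in WT vehicle (lowest without Mouse1513 or Mouse1524), 5 to 9 in T41B vehicle (without Mouse1551), 3 to 5 in WT BD10-2 (without Mouse1565), 11 to 16 in T41B BD10-2 and 18 to 21 in the mean. For genotype the ranges were 1 to 7 in vehicle sham (lowest without Mouse1509, Mouse1513 or Mouse1553), 0 to 1 in vehicle stimulated (0 without Mouse1522 or Mouse1551), 0 to 3 in BD10-2 sham (0 without Mouse1571), 5 to 8 in BD10-2 stimulated and 11 to 16 in the mean, and for genotype by stimulation under BD10-2, 0 to 1 (1 without Mouse1592). With the mouse as a block, the paired fit, stimulation called 17, 12, 5 and 14 members in WT vehicle, T41B vehicle, WT BD10-2 and T41B BD10-2 slices and 23 in the mean. With no low-count filter, the calls lost were Dnaja1 and Hsp90aa1 (WT vehicle), Dnaja4 (T41B vehicle), Hspa4l, Hsp90aa1 and Dnajc3 (T41B BD10-2) for stimulation, and Hspa4l (both stimulated comparisons) and Dnajc3 (BD10-2 stimulated) among the single genotype comparisons, with Hspa9 and Dnajc3 in the mean. With the first library only, Hsp90aa1 (WT vehicle and T41B BD10-2), Hspb1 (WT BD10-2), Hspa5 and Dnajc3 (T41B BD10-2) lost their stimulation calls, and Hspa4l and Hspb1 (vehicle stimulated), Bag3 (BD10-2 sham), Hspa5 and Dnajc3 (BD10-2 stimulated) their genotype calls. Every combination with 2 libraries was a BD10-2 group, so the counts of vehicle samples were the same in that fit. In the mean comparisons the fit ended the Hsp90ab1 call for stimulation and the Hspa9 call for genotype. The Hsp90ab1 call was also lost without Mouse1510, Mouse1551, Mouse1557, Mouse1564, Mouse1565, Mouse1570, Mouse1571 or Mouse1579, the other 18 mean stimulation calls held in those fits, and those of Dnaja4 and Dnajc3 were lost without the choroid-rich samples. Genotype and treatment comparisons allow no mouse block, since each mouse has 1 genotype and 1 treatment; with a correlation between slices of a mouse, limma called 11 members for the mean genotype comparison and 0 for treatment. Groups of 3 to 5 mice limit the calls, and Hspa1l, the member of lowest level, had the widest error in each comparison.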

Other observations

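Extreme differences between the slices of a mouse gathered in few animals. Over the 40 members, Mouse1553 (T41B vehicle) had the smallest stimulated minus sham difference for 14 genes and Mouse1524 (WT vehicle) the largest for 17. The sham slice of Mouse1553 had oligodendrocyte markers (6 genes) at 9835 CPM against 3323 in its stimulated slice, the largest gap of this kind between slices of a mouse, and its Cryab difference was -0.87, the lowest of the 14 mice. The stimulated slice of Mouse1524 had endothelial markers (5 genes) at 19.4 CPM against 92.9 in its sham slice.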
